A study of Rattus norvegicus with 8 samples.

Results

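The genes described here are 8 genes of cholesterol and fatty acid synthesis in the rat ventral prostate: Hmgcs1, Idi1, Fdft1, Sqle and Cyp51 of the cholesterol pathway, Fasn of the fatty acid pathway, and the regulators Srebf1 and Insig1. They were chosen by name, and every probe set annotated to exactly 1 of these symbols was taken. Of the 8 genes, 7 had such a probe set, with 12 probe sets in all, out of 14218 genes with a probe set of a single symbol. The expression of Hmgcs1, which encodes the cytosolic HMG-CoA synthase, was not analysed here. All 12 probe sets passed the filter on dim values. Idi1, Fdft1, Cyp51, Fasn and Srebf1 had 2 probe sets each, and Sqle and Insig1 had 1.

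The series held 8 Affymetrix arrays in 4 groups of 2, all from males of generation 3 (F3) bred from Sprague-Dawley rats. Whole ventral prostate was taken at 180 days of age from males of the vinclozolin lineage and of the control lineage, and epithelium of the ventral prostate at 45 days from males of both lineages. Vinclozolin is an agricultural fungicide whose metabolites block the androgen receptor. Pregnant ancestors received intraperitoneal injections on gestation days 8 to 14, but the stated treatment of all 8 samples names only DMSO, the vehicle, so the lineage rests on the sample titles and source descriptions. An epithelium sample is a pool of 11 animals, and a whole prostate sample is a pool of several glands whose number is not given. Whether both samples of a group hold different animals is not stated either, and the p-values therefore reflect only how these pools differ, part of which may be technical. The age and the preparation of whole prostate and epithelium cannot be told apart. By markers, the arrays labelled epithelium held luminal and basal epithelial RNA but also more smooth muscle signal than whole prostate, with values given further on.

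Cells make cholesterol from acetyl-CoA through the mevalonate pathway, and they make fatty acids from the same precursor through fatty acid synthase. Both routes are switched on by the sterol regulatory element binding proteins (SREBPs), which sit in the endoplasmic reticulum as inactive precursors, held there with their escort SCAP by INSIG proteins while sterols are plentiful. When sterols run low, the precursor moves to the Golgi and is cut, and its released part enters the nucleus and activates genes that carry sterol regulatory elements, usually with NF-Y or Sp1 bound nearby. In prostate epithelial cells androgens raise the expression of many of these genes, which makes them a readout of androgen action beside the secreted proteins. The question asked of these data was whether descent from vinclozolin exposure went with a change of these genes.

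RefSeq promoters of assembly GRCr8, each 250 bases before to 50 bases after a transcript start, were found for 5 of the 8 genes, with 2 for Srebf1, 6 promoters in all. Those of Srebf1, Idi1 and Insig1 are printed 5′ to 3′ because they belong to the members that differed most between the preparations, or, for Insig1, because it held the single E-box. Capitals mark the NF-Y box (CCAAT, here as its complement) and the E-box (CACGTG).
Srebf1 promoter 1, chr10:45518961-45519260, minus strand: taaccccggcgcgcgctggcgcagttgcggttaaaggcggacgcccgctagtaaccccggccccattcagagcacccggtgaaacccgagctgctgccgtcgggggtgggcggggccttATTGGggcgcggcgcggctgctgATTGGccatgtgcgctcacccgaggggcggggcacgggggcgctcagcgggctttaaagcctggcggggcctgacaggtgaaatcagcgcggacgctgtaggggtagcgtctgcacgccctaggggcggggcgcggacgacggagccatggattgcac
Srebf1 promoter 2, chr10:45529115-45529414, minus strand: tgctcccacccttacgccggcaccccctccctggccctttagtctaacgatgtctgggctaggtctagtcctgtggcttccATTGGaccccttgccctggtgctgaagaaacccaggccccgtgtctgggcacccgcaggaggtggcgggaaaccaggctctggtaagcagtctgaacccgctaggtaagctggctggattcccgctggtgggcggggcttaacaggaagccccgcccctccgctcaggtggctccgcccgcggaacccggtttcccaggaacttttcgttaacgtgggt
Idi1, chr17:66547475-66547774, minus strand: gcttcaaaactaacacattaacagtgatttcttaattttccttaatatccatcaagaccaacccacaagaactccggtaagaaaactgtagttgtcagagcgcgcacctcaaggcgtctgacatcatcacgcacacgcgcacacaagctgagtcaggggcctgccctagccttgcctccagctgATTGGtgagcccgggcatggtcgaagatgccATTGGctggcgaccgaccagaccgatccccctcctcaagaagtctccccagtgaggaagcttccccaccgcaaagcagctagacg
Insig1, chr4:8057720-8058019, minus strand: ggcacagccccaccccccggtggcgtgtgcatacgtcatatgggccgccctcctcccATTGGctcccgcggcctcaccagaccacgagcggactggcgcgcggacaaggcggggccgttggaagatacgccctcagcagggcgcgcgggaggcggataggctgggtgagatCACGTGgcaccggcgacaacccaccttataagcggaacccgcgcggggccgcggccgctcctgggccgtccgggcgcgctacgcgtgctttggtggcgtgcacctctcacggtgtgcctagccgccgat

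On either strand, 5 of the 6 promoters held CCAAT, against 37.5% of the 33469 promoters searched. The Sp1 box GGGCGG was also in 5 of 6, against 33.1% of all promoters. The E-box CACGTG was in 1 of 6, at 79 bases before the start of Insig1, against 6.42% of all. The sterol regulatory element was searched as TCACNCCAC and the androgen receptor motif as AGAACA, and 0 of the 6 promoters held either, against 1.12% and 20.7% of all. None of these motifs contains another. Letters in a window are a description, and they show neither binding nor its lack.

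**Figure D1:**
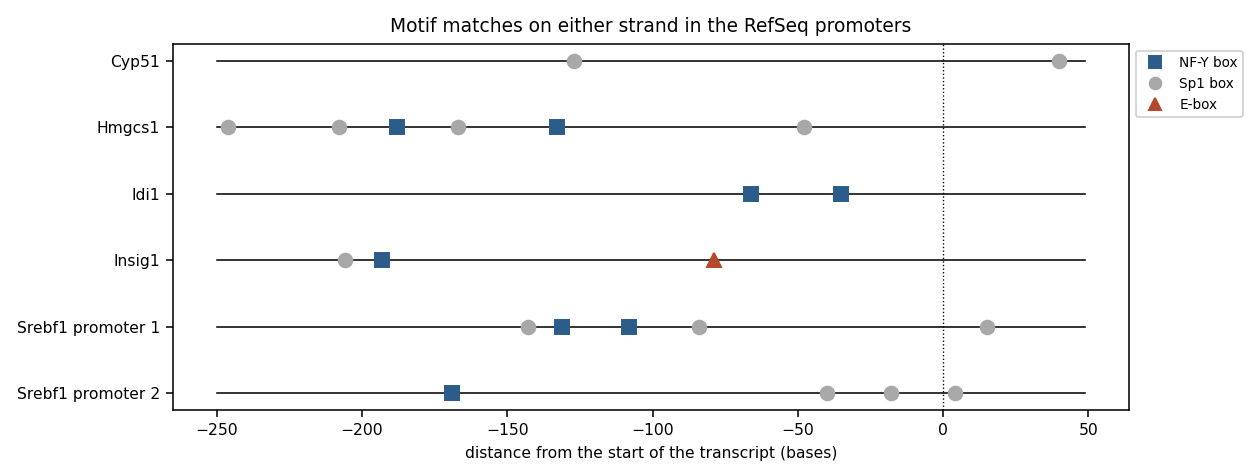
Positions of motif matches, in bases from the transcript start (dotted line), in the 6 RefSeq promoters of the member genes, 1 line per promoter. Squares are NF-Y boxes, circles Sp1 boxes and the triangle the E-box at -79 of Insig1, and Cyp51 is the promoter with no square.

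On the arrays, member intensities lay between 78 and 5205, while between 28.3% and 36.8% of all probe sets on an array were under 16. Intensities here are the deposited values on a linear scale. Changes are differences of log2(intensity + 16) after quantile normalisation, with the standard error (SE) of a limma fit over all 8 arrays. The threshold for a call was an adjusted p of 0.05 over the 21729 probe sets tested. The number of arrays, 2 per group, limits the precision. The median SE was 0.11 for the members and 0.17 for all probe sets.

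In whole ventral prostate none of the members passed the test between the vinclozolin and control lineages: 0 of 12 probe sets were called in limma's fit, against 1.74% of all probe sets (379 of 21729). At an unadjusted p under 0.05 there were 2 members, Idi1 1388872_at and Fdft1 1389906_at, on opposite sides of 0, and 4067 of all probe sets. With limma's trended robust prior, which called 1814 of all probe sets, 3 members were called, these 2 and Cyp51 1367979_s_at. The log2 changes ran from -0.45 to 0.32, with 5 positive and 7 negative, and the members' median was -0.08 beside -0.01 over all probe sets. The 95% intervals of the 12 probe sets reached from -0.83 to 0.58, so changes larger than these in either direction lay outside every interval.

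Idi1 encodes isopentenyl diphosphate isomerase, which makes the second isoprene building block. Its probe set 1388872_at had 570 and 490 in the vinclozolin whole prostate, against 801 and 687 in the control whole prostate. Both vinclozolin arrays were below both control arrays, and the log2 change was -0.45 ± 0.16 (SE, n = 2 arrays per group; limma adjusted p = 0.197). The other probe set, 1368878_at, had 2596 and 2737 against 2881 and 2750 in control, arrays that barely separated, with a log2 change of -0.19 ± 0.11 and an adjusted p of 0.404 in limma.

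Fdft1 encodes squalene synthase, the first enzyme committed to sterols. Its probe set 1389906_at had 853 and 849 in the vinclozolin whole prostate, against 682 and 679 in the control whole prostate. The arrays of each lineage lay close together and apart from the other lineage, and the log2 change was 0.32 ± 0.11 (n = 2 per group; limma adjusted p = 0.1997). On 1367839_at the values were 1620 and 1518 against 1407 and 1441 in control, a log2 change of 0.08 ± 0.11 with an adjusted p of 0.736 in limma. Both Fdft1 probe sets thus had higher intensities in the vinclozolin samples, and neither passed the test.

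Sqle, the squalene epoxidase that is one of the slow steps of the pathway, had 1009 and 1067 in the vinclozolin whole prostate, against 962 and 959 in the control whole prostate. Its log2 change was 0.08 ± 0.12 (limma adjusted p = 0.763). Cyp51, the lanosterol demethylase, gave opposite signs on its 2 probe sets. The probe set 1367979_s_at had 3647 and 3793 in vinclozolin, against 3921 and 3987 in control, a log2 change of -0.23 ± 0.11. On 1387020_at the vinclozolin arrays had 954 and 997, against 801 and 887 for the control arrays, a log2 change of 0.20 ± 0.11. The limma adjusted p-values were 0.316 and 0.399, so no direction can be given for Cyp51. A name ending in _s_at marks probes that can match transcripts of more than 1 gene, so the value of 1367979_s_at is uncertain.

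Fasn, the fatty acid synthase, had negative log2 changes on both probe sets, -0.14 ± 0.12 on 1367707_at and -0.14 ± 0.11 on 1367708_a_at (limma adjusted p = 0.590 and 0.524). On 1367707_at the vinclozolin whole prostate had 339 and 338, against 387 and 381 in the control whole prostate. On 1367708_a_at it had 1118 and 1065, against 1208 and 1130 in control. The arrays of the 2 lineages did not overlap on either probe set, although the gaps were small.

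Among the regulators, Insig1, which encodes the anchor that retains SREBPs, had 4599 and 5106 in the vinclozolin whole prostate, against 3920 and 3976 in the control whole prostate. The log2 change was 0.14 ± 0.11 (limma adjusted p = 0.531), and 0.29 on the deposited values without quantile normalisation (adjusted p = 0.207). Srebf1 encodes the SREBP that mainly drives fatty acid synthesis. Its probe set 1371104_at had 89.2 and 78.0 in vinclozolin, against 80.9 and 94.8 in control, which overlap, with a log2 change of -0.03 ± 0.12. Its probe set 1388426_at had 475 and 493 against 561 and 520 in control, with a log2 change of -0.13 ± 0.13. Neither was called (limma adjusted p = 0.919 and 0.669).

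Non-overlap of the arrays was common in whole prostate and carries little weight with 2 arrays per group. It held for 11 of the 12 member probe sets, 5 higher and 6 lower, against 53.9% of all probe sets. The median size of the log2 change, without its sign, was 0.14 for the members and 0.21 for all probe sets.

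**Figure D2:**
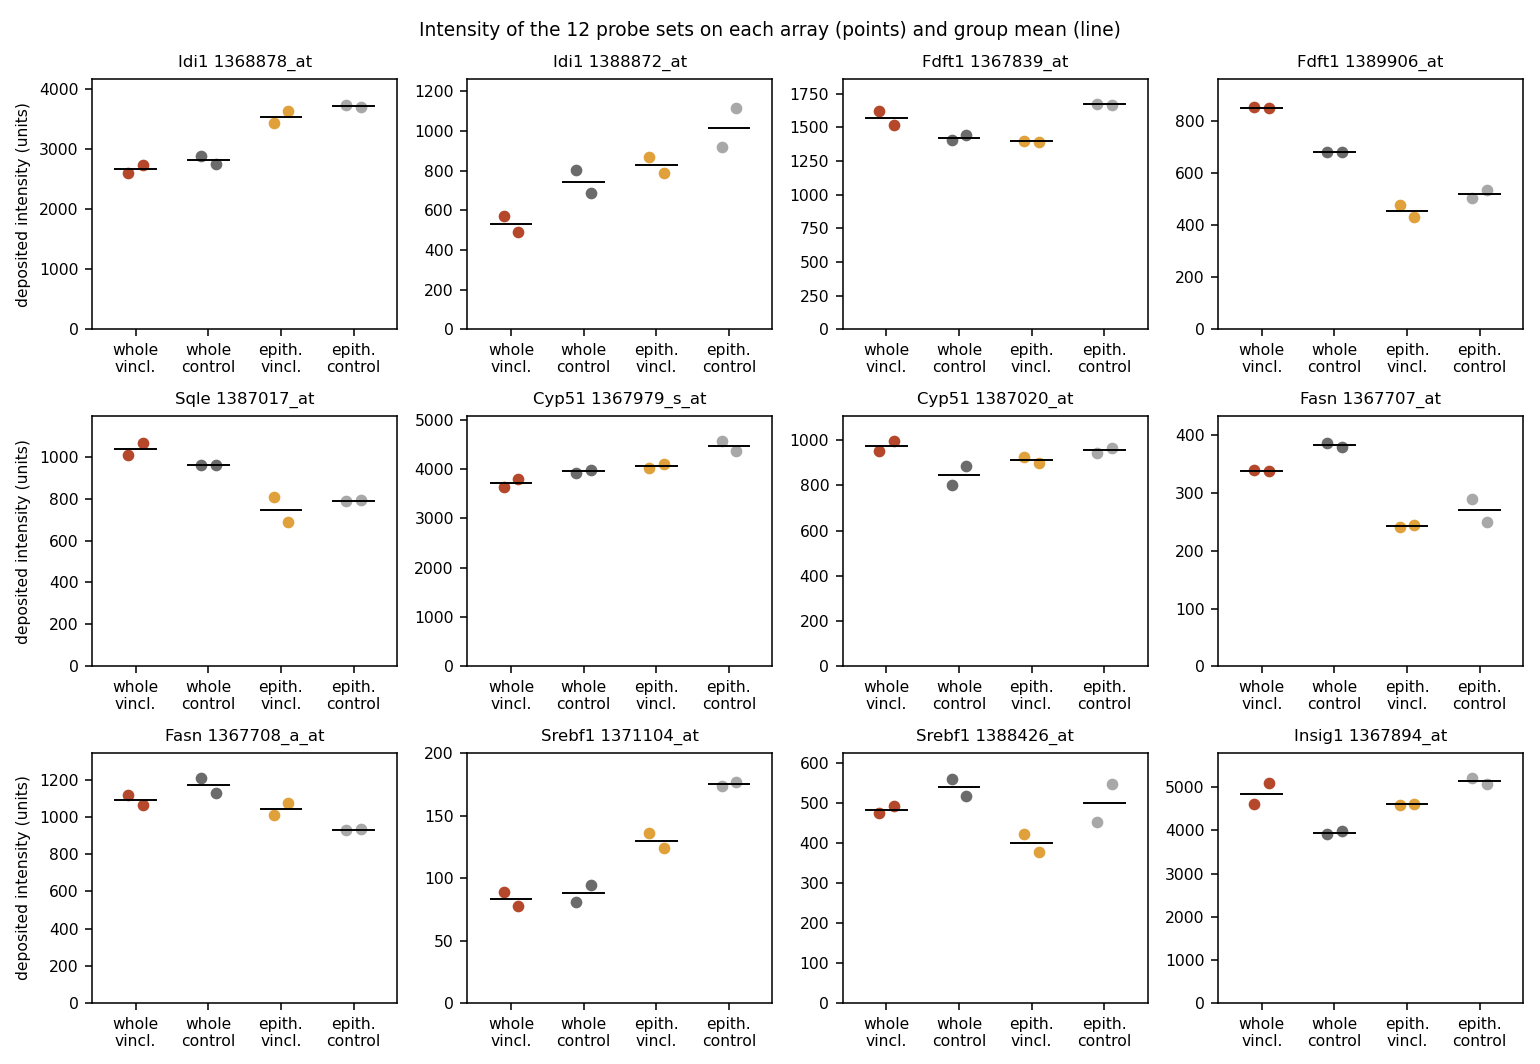
Deposited intensity (linear scale from 0) of each of the 12 member probe sets on the 8 arrays; points are arrays and lines are the means of the 2 arrays of a group. Srebf1 1371104_at shows the clearest step, with 174 and 177 in control epithelium and no value above 94.8 in whole prostate.

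In the epithelium at 45 days the members again did not pass the test: 0 of 12 were called, where 0.0092% of all probe sets (2 of 21729) were. At an unadjusted p under 0.05 there was 1 member, Srebf1 1371104_at, and 2471 of all probe sets. The log2 changes ran from -0.42 to 0.16, and 11 of the 12 were negative. The members' median was -0.12, beside 0.00 over all probe sets to 2 decimals. Non-overlap held for 10 of 12, 1 higher and 9 lower, against 39.4% of all probe sets.

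Both Srebf1 probe sets had lower intensities in the vinclozolin epithelium than in the control epithelium. On 1371104_at the vinclozolin arrays had 136 and 124, against 174 and 177 on the control arrays, a log2 change of -0.42 ± 0.12 with a 95% interval from -0.71 to -0.12 (n = 2 per group; limma adjusted p = 0.312). On 1388426_at the vinclozolin arrays had 422 and 379, against 454 and 548, a log2 change of -0.30 ± 0.13 (limma adjusted p = 0.475). The arrays of the lineages did not overlap on either probe set. Insig1 had 4590 and 4619 in the vinclozolin epithelium, against 5205 and 5083 in the control epithelium, a log2 change of -0.10 ± 0.11 (limma adjusted p = 0.780).

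The cholesterol synthesis members all had negative log2 changes in the epithelium, none of which was called. Fdft1 1367839_at had 1403 and 1390 in vinclozolin, against 1677 and 1665 in control, a log2 change of -0.22 ± 0.11 (limma adjusted p = 0.489). Idi1 1388872_at had 870 and 789 in vinclozolin, against 918 and 1116 in control, a log2 change of -0.26 ± 0.16 (limma adjusted p = 0.588). The spread between the 2 control arrays of Idi1 was as wide as the gap between the lineages. The other probe sets of Idi1, Fdft1, Sqle and Cyp51 had log2 changes between -0.17 and -0.05.

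Fasn 1367708_a_at was the member with a positive log2 change in the epithelium. It had 1009 and 1074 in vinclozolin, against 930 and 934 in control, a log2 change of 0.16 ± 0.11 (limma adjusted p = 0.628). Its other probe set, 1367707_at, had 241 and 245 in vinclozolin, against 290 and 250 in control, and a log2 change of -0.13 ± 0.12. The 2 probe sets of Fasn thus gave opposite signs, and no direction can be given for the gene in this tissue.

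**Figure D3:**
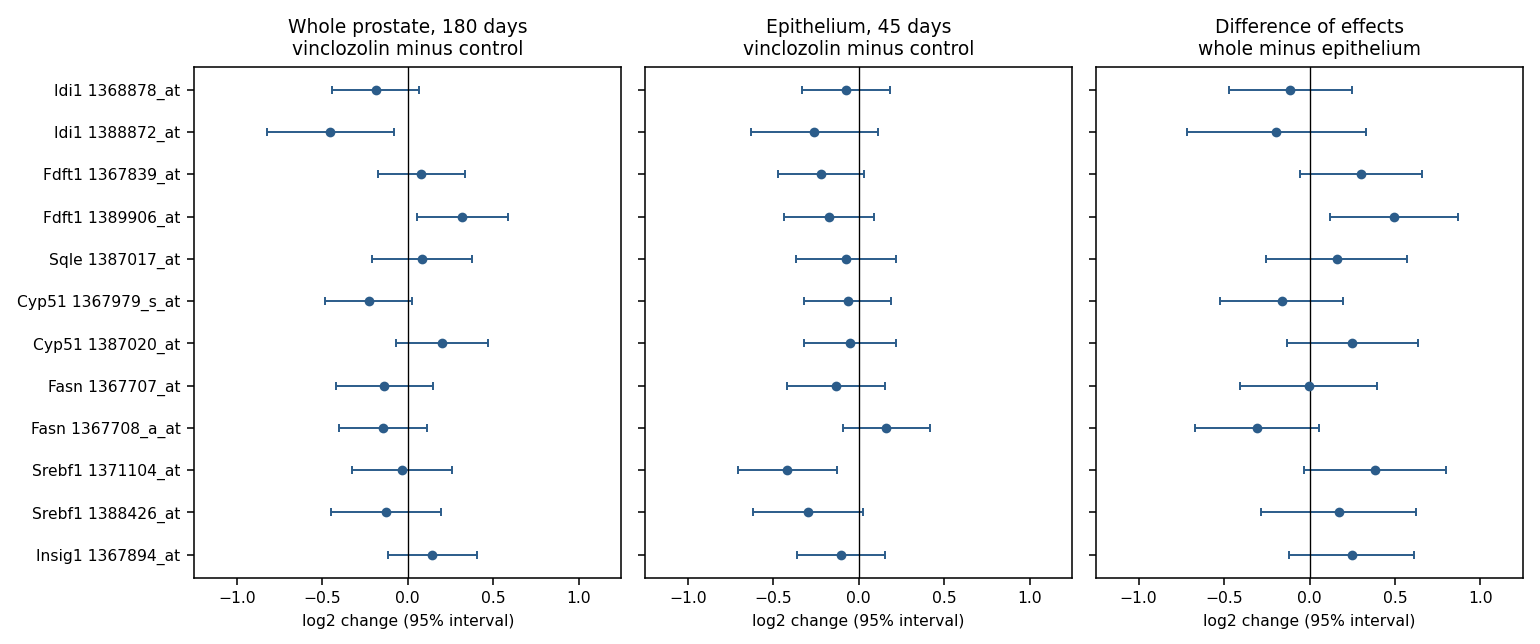
Log2 change of each member probe set with its 95% interval from limma, vinclozolin minus control in whole prostate (left) and in epithelium (middle), and the difference of these effects (right). Intervals that leave out 0 are those of Idi1 1388872_at and Fdft1 1389906_at in whole prostate, Srebf1 1371104_at in epithelium and Fdft1 1389906_at in the difference, and none of these had an adjusted p under 0.05.

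The difference between the lineage effects, whole prostate minus epithelium, was tested as an interaction. No member was called (0 of 12), and 0.29% of all probe sets were (63 of 21729). At an unadjusted p under 0.05 there was 1 member, Fdft1 1389906_at, among 2942 probe sets. Its log2 change was 0.32 in whole prostate and -0.17 in epithelium, a difference of 0.49 ± 0.16 with a 95% interval from 0.12 to 0.87 (limma adjusted p = 0.272, or 0.044 with the trended robust prior). The next largest difference was that of Srebf1 1371104_at, 0.38 ± 0.17 (limma adjusted p = 0.396). The members' median difference was 0.16, beside -0.01 over all probe sets.

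The rest of the pathway gave few calls between the lineages. Genes below are counted by their brightest probe set, beside a median log2 change of all genes, taken the same way, of 0.00 in both preparations to 2 decimals. Of 15 other cholesterol synthesis genes, 0 rose and 0 fell in whole prostate (median 0.02), and likewise in epithelium (median -0.10). Of 21 other fatty acid synthesis genes, 0 rose and 0 fell in either (medians 0.09 and 0.04). Of 15 genes for SREBP control and for uptake, export and storage of sterols, 0 rose and 0 fell in either (medians 0.05 and -0.06). For the difference of effects, these 3 lists held 0 calls, with medians of 0.10, -0.04 and 0.09. At an unadjusted p under 0.05, the 3 lists held 4, 5 and 2 genes in whole prostate, 0, 2 and 5 in epithelium, and 2, 2 and 4 for the difference of effects. The genes of lowest p in whole prostate included the elongase Elovl6, at 285 and 318 in vinclozolin against 168 and 208 in control (log2 change 0.64 ± 0.14, limma adjusted p = 0.074). The desaturase Fads1 had 41.5 and 52.5 in vinclozolin against 108 and 81.0 in control (-0.73 ± 0.16, adjusted p = 0.079 in limma). Srebf2, whose product mainly drives the cholesterol genes, had 903 and 762 in vinclozolin against 653 and 680 in control (0.32 ± 0.12, adjusted p = 0.243 in limma).

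One probe set outside these counts was called. Sc5d, the lathosterol oxidase of late cholesterol synthesis, had 505 and 474 on 1390777_at in the vinclozolin whole prostate, against 283 and 268 in the control whole prostate. Both vinclozolin arrays were well above both control arrays, a log2 change of 0.80 ± 0.11 (limma adjusted p = 0.028). The other Sc5d probe sets had log2 changes of 0.11 and -0.06 in the same comparison and were not called. In the fits that left out 1 array each, Sc5d 1390777_at was called in 0 of 8, with log2 changes from 0.76 to 0.84.

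Known androgen-responsive genes outside lipid synthesis were counted beside the members. Of 15 such genes, 1 rose and 2 fell in the vinclozolin whole prostate, with a median of -0.11. Abhd2, a lipase, rose by 0.71 ± 0.12. Eaf2, an elongation factor partner that androgens induce, fell by 1.29 ± 0.11, and Azgp1, a secreted zinc-binding glycoprotein, fell by 2.10 ± 0.15 (limma adjusted p = 0.045, 0.0046 and 0.0030). Eaf2 had 2634 and 2728 in the vinclozolin whole prostate, against 5751 and 5587 in the control whole prostate. In the epithelium 0 of the 15 were called and 4 had an unadjusted p under 0.05 (median -0.05). For the difference of effects 0 were called and 6 had such a p (median -0.16). Without 1 array, Abhd2 was called in 0 of 8 fits, Eaf2 in 4 of 8 and Azgp1 in 6 of 8, and adjusted p-values reached 0.235, 0.078 and 0.057.

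Marker sums of other cell types moved with the lineage in whole prostate. Of 10 skeletal muscle markers, 7 fell and 0 rose (median -1.63), and their summed intensity was 501 and 562 in the vinclozolin whole prostate, against 2220 and 2250 in the control whole prostate. Of 12 leukocyte and macrophage markers, 2 rose and 0 fell (median 0.61), with sums of 1720 and 1741 in vinclozolin against 979 and 949 in control. Adipocyte markers, which matter here because fat cells also make fatty acids, gave 0 calls of 15 and 0 at an unadjusted p under 0.05 (median -0.05), with sums of 2994 and 2885 in vinclozolin against 3212 and 2963 in control. Of 11 luminal epithelium markers 1 fell, of 7 endothelial markers 1 rose, and the 7 basal epithelium and 10 smooth muscle markers gave 0 calls, with 2 and 6 at an unadjusted p under 0.05 (medians -0.09, -0.02, 0.08 and -0.32). Fewer cells of a type and less RNA per cell cannot be told apart in these samples. The 3′ to 5′ ratio of beta-actin, a sign of RNA quality, was 3.37 and 3.14 in the vinclozolin whole prostate, against 3.74 and 3.98 in the control whole prostate. That of GAPDH was 1.40 and 1.35 in vinclozolin, against 1.47 and 1.39 in control, values that overlap. The part of these markers and ratios in the members' values was not tested.

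In the epithelium between the lineages, all 7 marker lists held 0 calls, with 12 of 72 genes at an unadjusted p under 0.05. Their medians were 0.04 for adipocytes, -0.06 for luminal epithelium, 0.02 for basal epithelium, -0.24 for smooth muscle, -0.12 for skeletal muscle, -0.10 for leukocytes and 0.04 for endothelium. Beta-actin 3′ to 5′ ratios were 2.35 and 2.26 in the vinclozolin epithelium, against 2.57 and 2.27 in the control epithelium. GAPDH ratios ran the other way, at 1.22 and 1.19 in vinclozolin against 1.08 and 1.13 in control. The beta-actin ratios overlapped between the lineages and the GAPDH ratios did not. The part of these ratios in the members' values was not tested. For the difference of effects, 2 skeletal muscle markers and 1 luminal marker were lower and 1 leukocyte marker was higher. The medians there were -1.69 for skeletal muscle, 0.77 for leukocytes, -0.21 for endothelium, 0.22 for basal epithelium, -0.14 for adipocytes, -0.04 for smooth muscle and 0.00 for luminal epithelium to 2 decimals.

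Between the preparations, in control males, the median size of the members' log2 change without its sign was 0.27, beside 0.35 over all probe sets. Of the 12 probe sets, 3 were called between control whole prostate at 180 days and control epithelium at 45 days, 1 higher (Fasn) and 2 lower (Srebf1 and Idi1) in whole prostate. Over all probe sets 27.8% were called (6051 of 21729), so the members' share is near the background. At an unadjusted p under 0.05 there were 6 members and 8718 probe sets. Non-overlap held for 10 of 12 members, 4 higher and 6 lower, against 66.6% of all. The members' median was -0.07, with 6 positive and 6 negative changes, and the median of all probe sets was 0.05.

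Srebf1 1371104_at had 80.9 and 94.8 in the control whole prostate, against 174 and 177 in the control epithelium. It was lower on both whole prostate arrays, with a log2 change of -0.86 ± 0.12, a 0.55-fold level, and a 95% interval from -1.15 to -0.57 (n = 2 per group; limma adjusted p = 0.0039). The call held in all 17 alternative fits, with log2 changes from -0.97 to -0.64 and adjusted p-values up to 0.034. The other Srebf1 probe set, 1388426_at, did not follow it. It had 561 and 520 in the control whole prostate, against 454 and 548 in the control epithelium, overlapping values with a log2 change of 0.01 ± 0.13 (limma adjusted p = 0.968). Srebf1 makes transcripts from separate starts, and 2 promoters are printed above, but which transcripts each probe set reads was not analysed here.

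Idi1 1388872_at had 801 and 687 in the control whole prostate, against 918 and 1116 in the control epithelium, and was lower by a log2 change of -0.52 ± 0.16 (limma adjusted p = 0.048). Idi1 1368878_at had 2881 and 2750 against 3732 and 3693, a log2 change of -0.29 ± 0.11 (limma adjusted p = 0.089). Both probe sets had the lower values in whole prostate. The call on 1388872_at was near the threshold: it held in 3 of 17 alternative fits and in 0 of the 8 that left out an array, where adjusted p-values ran from 0.056 to 0.220.

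Fasn 1367707_at had 387 and 381 in the control whole prostate, against 290 and 250 in the control epithelium, and was higher by a log2 change of 0.40 ± 0.12 (limma adjusted p = 0.047). Fasn 1367708_a_at had 1208 and 1130 against 930 and 934, a log2 change of 0.29 ± 0.11 (limma adjusted p = 0.094). Whole prostate had the higher values on both. The call on 1367707_at held in 6 of 17 alternative fits and in 1 of the 8 that left out an array, the one without epithelium control replicate 1, where the log2 change was 0.52.

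The members that were not called had smaller changes in the fit reported. Fdft1 1389906_at had 682 and 679 in the control whole prostate, against 505 and 533 in the control epithelium, a log2 change of 0.29 ± 0.11, while Fdft1 1367839_at had 1407 and 1441 against 1677 and 1665, a change of -0.14 ± 0.11. The Fdft1 probe sets thus differed in sign (limma adjusted p = 0.103 and 0.356), except with median centring, where the second stood at 0.0061. Sqle had 962 and 959 in the control whole prostate, against 787 and 792 in the control epithelium, a log2 change of 0.21 ± 0.12 (limma adjusted p = 0.250). The Cyp51 probe sets had log2 changes of 0.05 ± 0.11 and -0.25 ± 0.11 (limma adjusted p = 0.789 and 0.147), and each turned sign under 1 other scaling, to -0.17 and 0.059. Insig1 had 3920 and 3976 in the control whole prostate, against 5205 and 5083 in the control epithelium, a log2 change of -0.17 ± 0.11 (limma adjusted p = 0.300). On the deposited values without quantile normalisation the Insig1 change was -0.38 and was called (limma adjusted p = 0.041). Fdft1 1389906_at (0.38, limma adjusted p = 0.041) and Idi1 1368878_at (-0.40, 0.033) were called there too. With median centring, Fdft1 1389906_at (0.62, limma adjusted p = 0.0077), Fasn 1367708_a_at (0.56, 0.012) and Sqle (0.51, 0.017) were called higher. The median of all probe sets was then 0.20.

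The order of the 4 groups by mean intensity differed between members. Both Idi1 probe sets and Srebf1 1371104_at ran from vinclozolin whole prostate at the low end through control whole prostate and vinclozolin epithelium to control epithelium at the high end. On Srebf1 1371104_at the whole prostate groups overlapped, at means of 83.6 and 87.9, and the vinclozolin epithelium at 130.0 and the control epithelium at 175 lay above them. Sqle and Fdft1 1389906_at ran in a different order, with the vinclozolin epithelium lowest and the vinclozolin whole prostate highest. Over all 8 arrays the normalised log2 values ranged by 0.22 for Insig1, the narrowest, and by 1.22 for Idi1 1388872_at, the widest.

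Among the other cholesterol genes, those called were lower in the control whole prostate than in the control epithelium, whereas fatty acid genes were called in both directions. Of 15 other cholesterol synthesis genes, 0 were higher and 6 lower, with a median of -0.36, beside 0.06 over all genes. Over all probe sets 27.8% were called in this comparison, 3250 higher and 2801 lower. Dhcr7, the last reductase of the pathway, had 537 and 436 in whole prostate, against 756 and 847 in epithelium, a log2 change of -0.82 ± 0.14. Acat2, the thiolase at its start, was lower by a log2 change of -0.81 ± 0.13. Lbr (-0.71 ± 0.16) and Tm7sf2 (-0.51 ± 0.12), which share a sterol reductase step, Sc5d (-0.66 ± 0.11) and Nsdhl (-0.43 ± 0.12), a demethylation enzyme called in 4 of 17 alternative fits, were also lower. Fdps, which makes farnesyl diphosphate, had 3748 and 3930 in whole prostate, against 5381 and 6056 in epithelium, and a log2 change of -0.36 ± 0.11 that missed the threshold (limma adjusted p = 0.052).

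Of 21 other fatty acid synthesis genes, 6 were higher and 6 lower in the control whole prostate, with a median of 0.11, where 27.8% of all probe sets were called. Higher were Acly (0.60 ± 0.14), which makes cytosolic acetyl-CoA, Acaca (0.82 ± 0.13), which makes malonyl-CoA, Me1 (0.71 ± 0.12), a source of NADPH, Acsl1 (0.93 ± 0.11) and Hacd3 (0.84 ± 0.13). Thrsp, a lipogenic factor abundant in fat and liver, had 186 and 211 in whole prostate, against 35.5 and 13.6 in epithelium, a log2 change of 2.51 ± 0.23. Lower were the desaturases Scd (-0.88 ± 0.17) and Fads1 (-0.90 ± 0.16), the elongase Elovl5 (-0.76 ± 0.12), the citrate carrier Slc25a1 (-0.52 ± 0.15), Acss2 (-0.37 ± 0.11) and Acacb (-0.69 ± 0.18). Acacb was dim in both preparations, so its change is understated by the added 16. Acss2 and Slc25a1 were called in 2 of 17 alternative fits each and Acacb in 7.

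Of the 15 genes for SREBP control and sterol handling, 2 were higher and 2 lower, with a median of -0.01. That share is near the 27.8% called over all probe sets. Mbtps2, the protease that makes the second cut in SREBPs, was higher by 1.39 ± 0.12, with 169 and 179 in whole prostate, against 57.9 and 61.3 in epithelium. Stard4, a sterol carrier, was higher by 1.36 ± 0.11 on 1392516_a_at, while its 2 other probe sets were not called. Scarb1, the receptor for high density lipoprotein, was lower by a log2 change of -1.23 ± 0.11, and Nr1h2, a liver X receptor, by one of -0.80 ± 0.13. Of the 15 androgen-responsive genes, 3 were higher and 4 lower, with a median of 0.24. Over these 4 lists 44 probe sets were called, and 23 of them were called in every alternative fit.

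**Figure D4:**
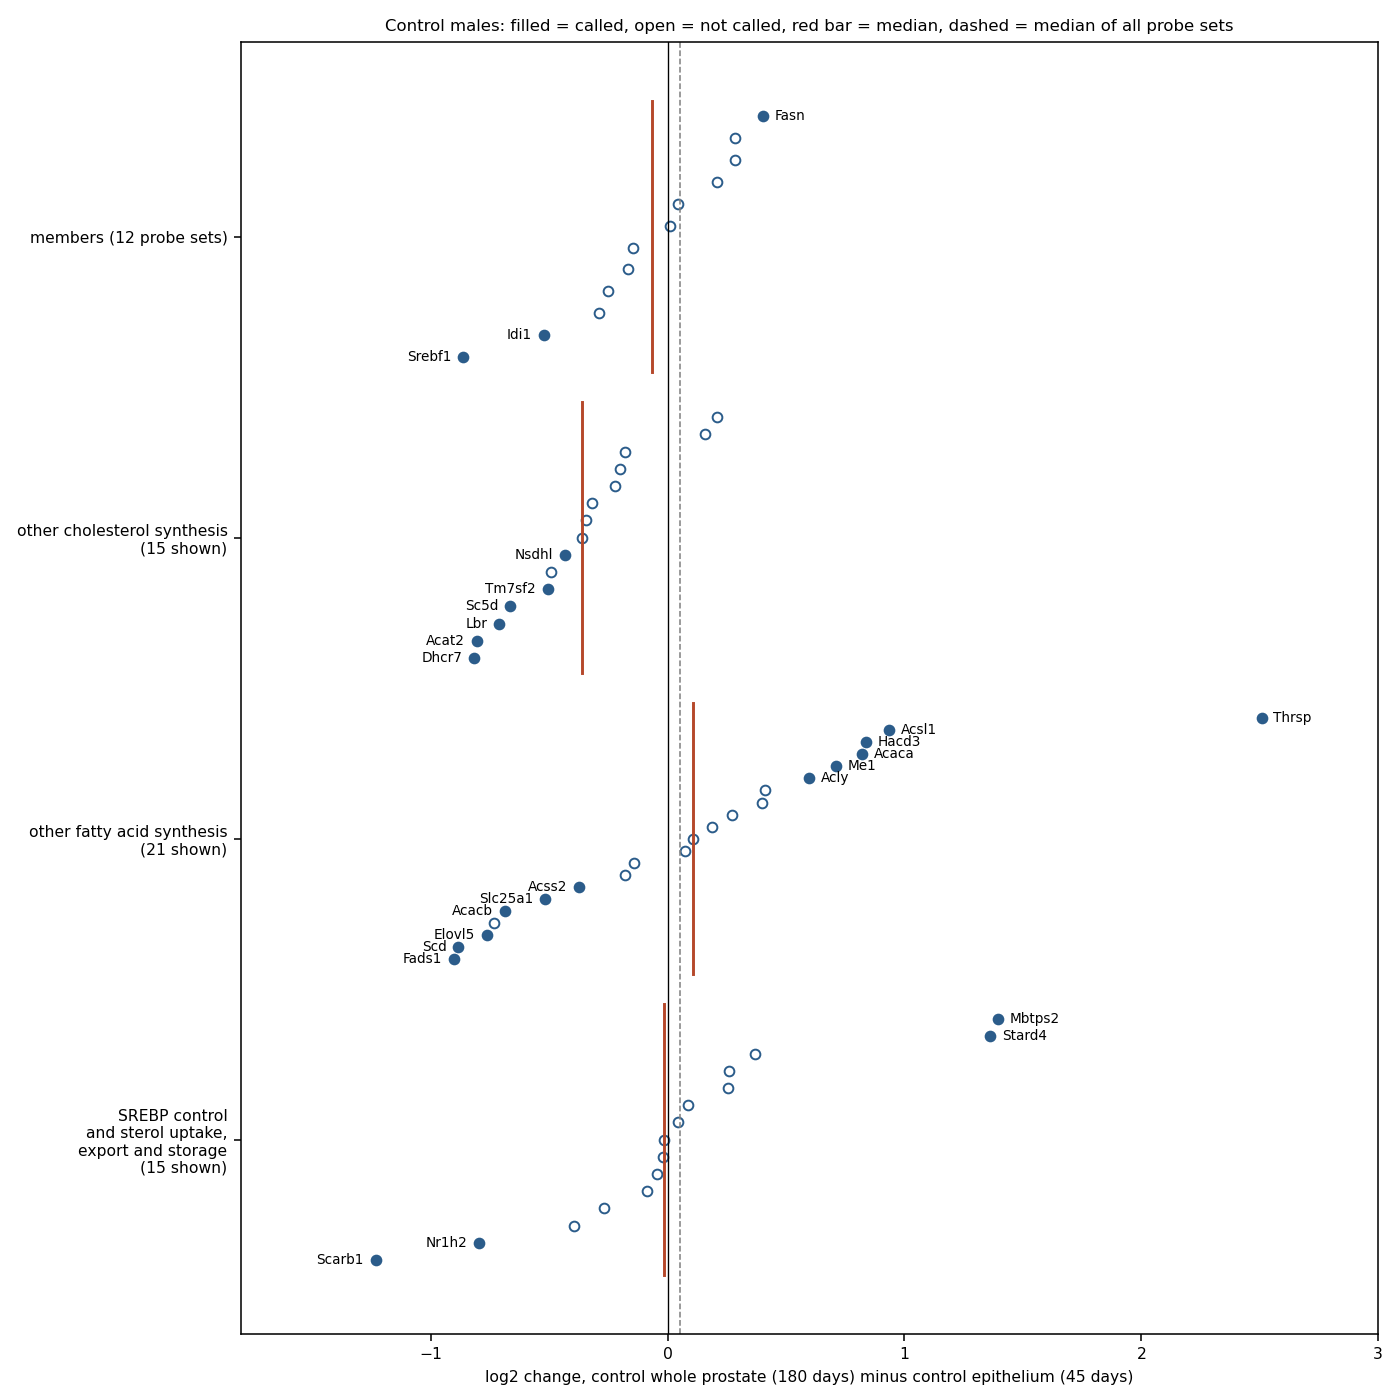
Log2 change, control whole prostate at 180 days minus control epithelium at 45 days, of the 12 member probe sets and of the genes of 3 pathway lists (brightest probe set each); filled points were called, red bars are list medians and the dashed line is the median of all probe sets (0.05). Other cholesterol genes sit mostly left of 0 (median -0.36), and fatty acid genes are called on both sides.

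The scale of this comparison depends on how the arrays are put on a common level. The median of all probe sets was 0.05 after quantile normalisation, 0.20 after median centring and -0.04 on the deposited values. Relative to it, the median of the other cholesterol genes was -0.41, -0.29 and -0.29, that of the other fatty acid genes 0.05, 0.21 and 0.21, and that of the member genes -0.05, -0.14 and -0.14. Relative to it, Srebf1 1371104_at stood at -0.92, -0.85 and -0.85, Idi1 1388872_at at -0.58, -0.40 and -0.40, and Fasn 1367707_at at 0.35, 0.53 and 0.53.

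The cell types of the preparations differed as well, and the label epithelium did not match the markers in full. Of 10 smooth muscle markers, 0 were higher and 8 lower in the control whole prostate (median -2.37), with summed intensities of 3178 and 3116 in whole prostate, against 18492 and 18878 in epithelium. Acta2, the smooth muscle actin, had 119 and 165 in whole prostate, against 2117 and 1789 in epithelium. Of 7 basal epithelium markers, 0 were higher and 4 lower (median -2.33), with sums of 779 and 843 in whole prostate, against 3694 and 3842 in epithelium. Luminal markers were present in both, with sums of 26521 and 26029 in whole prostate and 23518 and 24138 in epithelium, 4 higher and 2 lower (median 0.28). Basal and luminal keratins were thus present on the arrays labelled epithelium, together with smooth muscle signal above that of whole prostate.

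Adipocyte markers differed beside the fatty acid genes. Of 15 adipocyte markers, 10 were higher and 0 lower in the control whole prostate (median 1.18), with sums of 3212 and 2963 in whole prostate, against 535 and 487 in epithelium. Cfd, the adipocyte protease adipsin, had 247 and 234 in whole prostate, against 2.7 and 2.2 in epithelium. Of 12 leukocyte markers 7 were higher and 0 lower (median 1.00), and of 7 endothelial markers 0 were higher and 4 lower (median -0.59). Of 10 skeletal muscle markers 8 were higher and 2, Acta1 and Tnnc2, lower (median 1.87). Their summed intensity was lower, at 2220 and 2250 in whole prostate against 5299 and 5598 in epithelium. Most of the epithelium sum was Acta1, at 608 and 628 in whole prostate against 4458 and 4820 in epithelium. The beta-actin ratio was 3.74 and 3.98 in the control whole prostate, against 2.57 and 2.27 in the control epithelium, and the GAPDH ratio was 1.47 and 1.39 in whole prostate, against 1.08 and 1.13 in epithelium. The part of these markers and of RNA quality in the members' values was not tested.

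**Figure D5:**
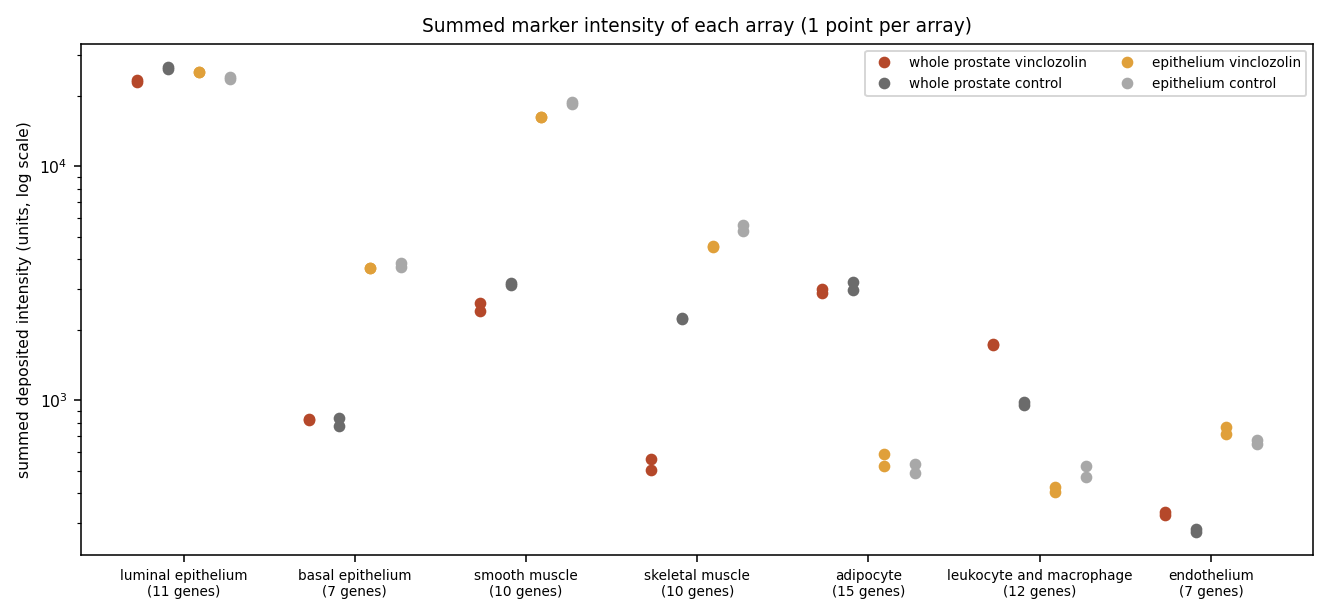
Summed deposited intensity (log axis) of 7 cell type marker lists on each of the 8 arrays, 1 point per array and 4 groups per list in the order vinclozolin whole prostate, control whole prostate, vinclozolin epithelium and control epithelium. Adipocyte sums are 2885 and above in whole prostate and 587 and below in epithelium, while smooth muscle sums run the other way.

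The members did not move as 1 block over the arrays. The mean log2 value of the brightest probe sets of Idi1, Fdft1, Sqle and Cyp51 was 10.94 and 10.97 in vinclozolin whole prostate, 11.02 and 11.02 in control whole prostate, 10.97 and 10.93 in vinclozolin epithelium, and 11.09 and 11.04 in control epithelium. It was lower on each vinclozolin array than on the control arrays of the same preparation, by small amounts. In whole prostate 2 of these 4 probe sets had positive log2 changes, Fdft1 1367839_at and Sqle (0.08 each). The other 2 were negative, Idi1 1368878_at (-0.19) and Cyp51 1367979_s_at (-0.23). On the deposited values these changes were 0.14, 0.11, -0.08 and -0.09, so the lower values of the mean in whole prostate depend on the normalisation. Pearson's r of single probe sets with this mean, over 8 arrays in 4 groups, was 0.73 for Cyp51 1367979_s_at, 0.56 for Fdft1 1367839_at and 0.48 for Idi1 1368878_at, which are part of the mean, and -0.07 for Sqle, which is too. Of the probe sets outside it, Srebf1 1388426_at had 0.58, Insig1 0.26 and Fasn 1367708_a_at -0.39.

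By the same measure, the 5 genes most like this mean were Idh3b, a subunit of the mitochondrial isocitrate dehydrogenase (r = 0.98), Cox11, an assembly factor of cytochrome oxidase (0.97), Fkbp14 (0.97), Scin (0.95) and Tmem245 (0.95). The 3 most like Fasn 1367708_a_at were Ints6l (0.97), Chd6 (0.97) and Bcas1 (0.97). These are the highest of all genes tested over only 8 arrays that share groups, and they are given as a description.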

How the data were processed

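RNA was labelled with biotin by the standard Affymetrix procedure, per the labels. The values deposited by the authors are linear intensities, 1 per probe set. The summarising software is not stated per the labels, but the 2% trimmed mean was 125 to 125.1 on every array, so the arrays had been put on a common mean. Array medians were 28.7 to 38.7. The unit was taken from the values.

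Of 31099 probe sets, 57 controls were left out. Intensities became log2(value + 16), which understates changes of dim probe sets. Array medians then differed by 0.291, more than the 0.2 allowed, so arrays were quantile normalised, and the dimmest 30% of probe sets by mean were dropped, leaving 21729. Group means were fitted with limma 3.58.1 (lmFit, contrasts.fit, eBayes) in R 4.3.3 over all 8 arrays, with 4 residual degrees of freedom and a prior of 2.62. P-values were adjusted by Benjamini and Hochberg. The fit was tested on simulated data. Python 3.11.15 and matplotlib 3.10.9 made tables and plots.

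The platform annotation gave 20832 probe sets 1 symbol, 436 several and 9780 none. Entrez identifiers of 20764 were in the RefSeq table (GRCr8), and 0 symbols changed. The members, lists and tests were chosen with earlier results of these data known. Named are all member probe sets, list genes called or of lowest p, up to 4 per pathway list and comparison and 2 per marker list, and the genes most like the members over the arrays. Motifs are matched on both strands. Alternatives changed the pseudocount, normalisation, filter, prior, weights, arrays fitted, a replicate block and single arrays.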

Additional observations from a re-analysis of the deposited data

How the results depend on the processing

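Each of the 12 probe sets was refitted under 9 other settings (8 for the difference of effects) and without each of the 8 arrays in turn. The lone array of a group is then assumed to vary like the others. In epithelium no alternative called a member. In whole prostate and for the difference, only limma's trended robust prior did, which borrows the spread from probe sets of similar intensity. It called 3 members in whole prostate: Idi1 1388872_at lower (adjusted p = 0.019), Cyp51 1367979_s_at lower (0.019) and Fdft1 1389906_at higher (0.031). It called 1 in the difference, Fdft1 1389906_at (0.044). Between the preparations of control males, 3 members were called. The count was 1 with a pseudocount of 1, with no filter, with only the arrays compared and with the replicate block, 5 with a pseudocount of 64, on the deposited values and with median centring, and 8 with the trended robust prior. Without 1 array it was 1 to 2. Srebf1 1371104_at was called throughout. The cause was not tested. Replicate numbers were not taken as pairs in the fit reported. Deviations of same-numbered arrays from their group means correlated between -0.0202 and 0.0294, which cannot show whether the samples were paired. The replicate block changed no member call between the lineages, and over all probe sets it moved the whole prostate count to 177.

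Signs turned for some uncalled values. The difference of effects of Cyp51 1367979_s_at was 0.046 on the deposited values and 0.022 with median centring. Between preparations, median centring gave 0.0061 for Fdft1 1367839_at and 0.059 for Cyp51 1387020_at, and the deposited values gave -0.17 for Cyp51 1367979_s_at. Without 1 array, ranges crossed 0 for Srebf1 1371104_at in whole prostate (-0.12 to 0.051), Sqle in epithelium (-0.19 to 0.041), the difference of Fasn 1367707_at (-0.12 to 0.11), and, between preparations, Cyp51 1367979_s_at (-0.012 to 0.10) and Srebf1 1388426_at (-0.12 to 0.14). Over all probe sets, the alternatives called 26 to 1814 in whole prostate (379 in the fit reported), 0 to 205 in epithelium (2), 5 to 540 for the difference (63) and 2661 to 7782 between the preparations (6051).

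The 2 arrays per group, each of pooled animals, limit the precision of these values. Dim probe sets have understated changes. Lineage is known from titles and source descriptions only, and age, preparation, cell makeup and RNA quality move together between whole prostate and epithelium.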
